A study of Arabidopsis thaliana with 18 samples.

Results

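The comparison of polysome RNA with steady-state RNA in darkness rested on 6 of the 18 arrays of the series: 3 arrays of polysome RNA and 3 of steady-state RNA, picked by their labels and paired by replicate number. Both groups came from Arabidopsis thaliana of the accession Col-0, with no transgene or mutation given in the labels, grown in darkness for 4 d on agar and sampled as the aerial parts of etiolated seedlings. Steady-state RNA was total RNA, and polysome RNA was total RNA recovered from the polysome part of a sucrose gradient. The other 12 arrays repeated both kinds of RNA after white light for 0.5 h and 4 h, with 3 arrays a group, and enter here in the signal filter, in the estimate of the spread and where a dark difference is set against its counterpart in light. The replicates are called biological in the labels, and polysome and steady-state samples of the same number share a source name.

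An mRNA that is being translated carries several ribosomes at once and sediments in a sucrose gradient as a polysome, apart from free messenger particles and single ribosomes. The polysome signal of a transcript over its steady-state signal is therefore widely read as a measure of how far that transcript is engaged in translation, and etiolated seedlings are known to hold part of their mRNA off polysomes until light arrives. Such seedlings live on seed reserves, elongate the hypocotyl, keep etioplasts in place of chloroplasts and accumulate protochlorophyllide. Chloroplast mRNAs are translated inside the organelle on bacterial-type ribosomes and mitochondrial mRNAs on ribosomes of their own, whereas nuclear transcripts use cytosolic ribosomes.

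Values below are signals in arbitrary units, scaled by the submitters to the same mean on every array, and differences are log2 polysome minus log2 steady-state RNA, with the standard error (SE) of a fit over all 18 arrays. A probe set was called where limma's Benjamini-Hochberg adjusted p over 15922 probe sets was under 0.05. Because of the scaling only differences relative to the other transcripts are visible: a shift of all mRNA onto or off polysomes would leave no trace. In whole aerial parts, fewer cells of a type with polysomes and less RNA on polysomes per cell cannot be told apart. Medians of the 6 dark arrays lay between 161.9 and 185.8, and their number limits the precision. Across probe sets, log2 signals correlated at 0.943 to 0.961 among polysome arrays, at 0.916 to 0.947 among steady-state arrays, and at 0.896 to 0.950 between the kinds. PORB, encoding a protochlorophyllide oxidoreductase, gave 14027, 12153 and 12192 in polysome RNA, against 10911, 11459.6 and 11166 in steady-state RNA. The other planned markers of the etiolated state, PORA and PHYA, are not among the genes measured here, and PORB alone does not establish that state. Neither root marker with values here passed the signal filter. Only EXPA7 was near the bottom of the scale, between 8.1 and 13.6 on polysome arrays and between 6 and 8.7 on steady-state arrays. EXPA18 reached further up, between 33.8 and 76.6 on polysome arrays and between 9.6 and 95.9 on steady-state arrays. The other listed root markers were not analysed here.

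The kinds of RNA differed in the balance of 5′ and 3′ signal of the array's control transcripts. The first actin control gave a 5′ over 3′ ratio of 0.0339, 0.0256 and 0.0702 on polysome arrays, against 0.134, 0.122 and 0.106 on steady-state arrays, and the first GAPDH control gave 0.19, 0.174 and 0.253 on polysome arrays, against 0.542, 0.531 and 0.665 on steady-state arrays. The second actin control gave 0.117, 0.18 and 0.217 on polysome arrays, against 0.465, 0.514 and 0.613 on steady-state arrays. In each of these the polysome arrays lay below the steady-state arrays without overlap, as they did for the second GAPDH control, whereas both ubiquitin controls overlapped. The 25S rRNA probe set read 50.7, 99.1 and 93.7 on polysome arrays and 122, 179 and 249 on steady-state arrays, again without overlap. The actin, GAPDH and 25S rRNA controls thus moved with the kind of RNA on the dark arrays, and their part in the results was not tested; the controls of the light arrays were not analysed here.

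**Figure D1:**
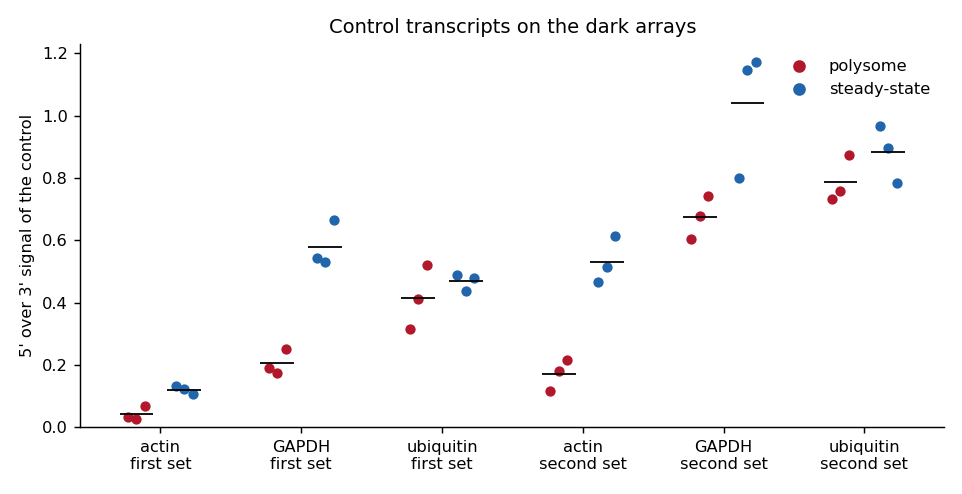
Ratio of 5′ to 3′ signal of 6 control transcripts on the dark arrays, with 1 point per array and a bar at the mean. Polysome arrays (left of each pair) lie below steady-state arrays for both actin and both GAPDH controls and overlap with them for ubiquitin.

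In darkness 2738 of 15922 probe sets (17.2%) differed between polysome and steady-state RNA: 1323 (8.31%) were higher on polysomes and 1415 (8.89%) lower. The median difference over all probe sets was 0.03, and the range from the 5th to the 95th percentile ran between -0.86 and 0.77. Differences of at least 2-fold were more often losses than gains, with 160 called probe sets higher (1%) and 361 lower (2.27%). Of the called probe sets, 1419 list 1 gene. Without the replicate number as a block 1313 were called, 589 higher and 724 lower. Leaving out replicate number 2 of all groups left 760 calls (297 higher, 463 lower) and leaving out number 3 left 1510 (659 higher, 851 lower). Leaving out number 1 left 2609 (1281 higher, 1328 lower). Counts of list members in these settings, given below, are to be read beside these totals. Without the dark polysome array of replicate 1 there were 1772 calls, and without the dark steady-state array of replicate 2 there were 1811.

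**Figure D2:**
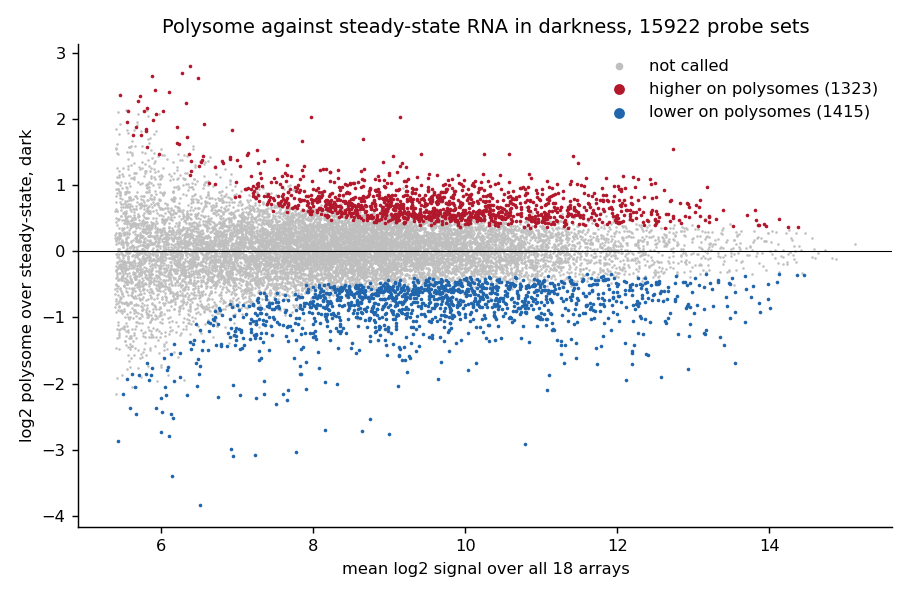
Log2 polysome over steady-state difference in darkness against the mean log2 signal over all 18 arrays, with 1 point per probe set (15922). The 1323 probe sets higher on polysomes and the 1415 lower are coloured, and the largest differences lie below 0.

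Genes were ranked by difference among those with a probe set of their own, a call, no overlap of the arrays and a geometric mean signal of at least 200 in the higher group. The furthest above on polysomes was AT5G07740, with 207, 311 and 196 in polysome RNA, against 40.7, 29.6 and 44.9 in steady-state RNA. Its groups did not overlap, and its log2 difference was 2.62 ± 0.528 (SE, adjusted p = 0.00159); that call was lost when replicate number 2 was left out of all groups. AT5G10770 gave 1453, 1119 and 1257 in polysome RNA, against 204, 343 and 424 in steady-state RNA, a difference of 2.04 ± 0.253 (SE, adjusted p = 1.43e-05). The reference table names neither gene beyond its locus. The 10 genes at this end spanned log2 differences of 1.40 to 2.62, and the others were AT3G03790, AT2G46630, AT3G15570, AT1G28400, AT3G06410, AT5G16450, AT5G08560 and AT2G15000. The most strongly expressed of them was AT5G08560, at 4992, 4973 and 3548 in polysome RNA, against 1693, 1808 and 1433 in steady-state RNA. AT3G15570 was the weakest call, at 1.49 ± 0.471 (SE, adjusted p = 0.0333), and lost it in 11 of 17 alternative settings, since the stricter filter did not keep the gene; the other 8 kept theirs in all 18.

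At the opposite end AT1G33470 gave 23.3, 33.1 and 13.2 in polysome RNA, against 540, 273 and 201 in steady-state RNA, a difference of -3.83 ± 0.422 (SE, adjusted p = 3.72e-06). SIZ1, which encodes a SUMO E3 ligase, gave 9, 76 and 108 in polysome RNA, against 386, 282 and 418 in steady-state RNA. Its first polysome value lay far under the other two, and its difference of -3.09 ± 0.775 (SE, adjusted p = 0.00825) was no longer called without that array, without the dark steady-state array of replicate 1, or without replicate number 1. DI21, named for its induction by drought, gave 55, 99.1 and 88.9 in polysome RNA, against 160.3, 588 and 629.9 in steady-state RNA, with the steady-state value of replicate 1 far under those of replicates 2 and 3 (-2.31 ± 0.322 SE, adjusted p = 4.76e-05). AT5G20700 had the strongest signal at this end, 817, 1222 and 1009 in polysome RNA, against 2988, 5409 and 4892 in steady-state RNA, and the smallest relative error (-2.10 ± 0.135 SE, adjusted p = 4.98e-09). The other 6 were AT3G50590, AT1G32810, AT1G53030, AT4G35335, AT2G43160 and AT4G16180, with differences between -2.99 and -2.10; AT1G32810 lost its call without the dark polysome array of replicate 1 and without replicate number 2. All 20 genes had groups without overlap by the rule that named them.

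**Figure D3:**
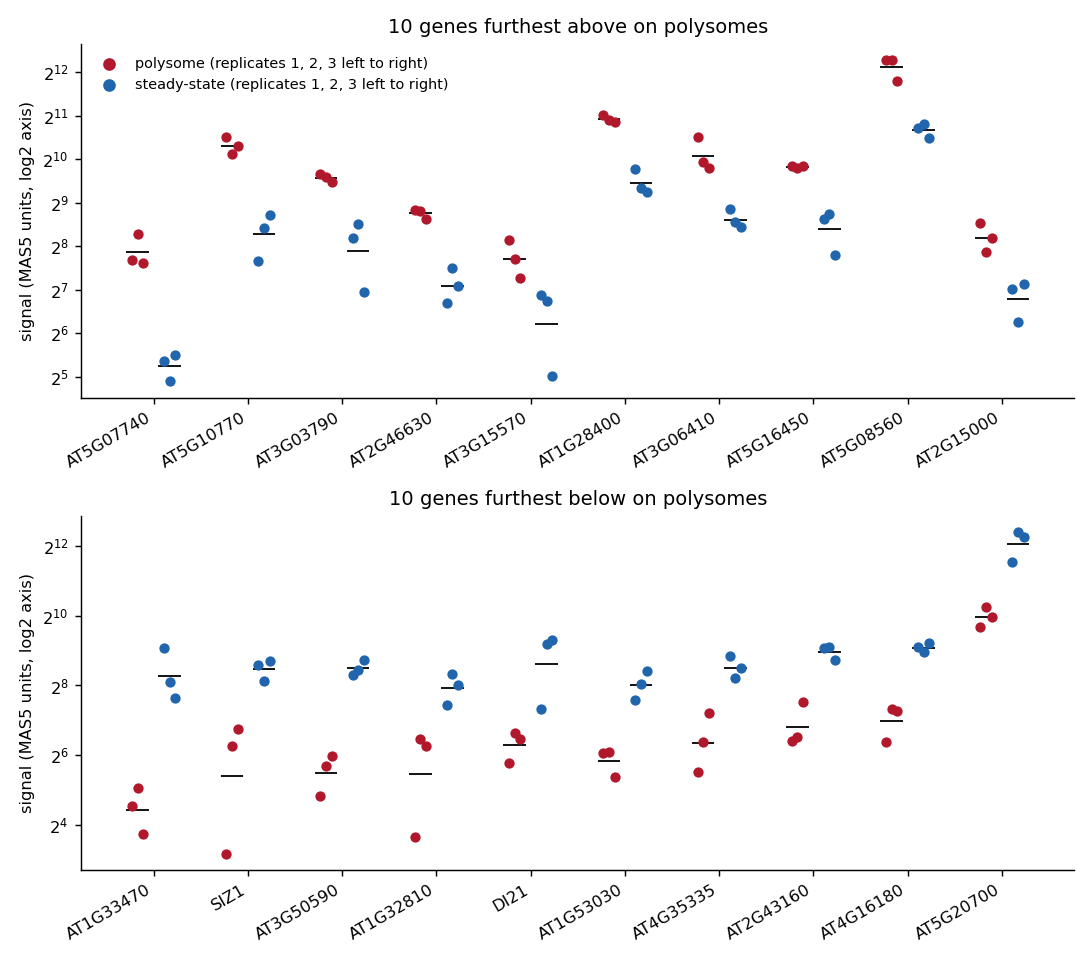
Signal of the 10 genes furthest above and the 10 furthest below on polysomes, on a log2 axis, with 1 point per array (replicates 1, 2 and 3, left to right) and a bar at the geometric mean. Polysome values stand left of steady-state values, and the kinds do not overlap in any of these genes.

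Genes for cytosolic ribosomal proteins had more higher calls than the 8.31% of all probe sets, while their lower calls were near the 8.89% of all probe sets. Lists hold the genes that have a probe set of their own above the signal filter, which for the small ribosomal subunit was 42 of 94 listed genes. For the large subunit it was 76 of 131, and for translation factors 13 of 48. Each list thus stands only for its measured members. Of these 42 genes for proteins of the small (40S) ribosomal subunit, 10 were higher on polysomes (23.8%) and 5 lower (11.9%), with a median difference of 0.20. Of 76 for the large (60S) subunit, 15 were higher (19.7%) and 8 lower (10.5%), with a median of 0.14. The highest of the 60S genes, AT3G06680, gave 976, 956 and 524 in polysome RNA, against 396, 432 and 256 in steady-state RNA, a difference of 1.16 ± 0.207 (SE, adjusted p = 0.000561). In the 40S list AT2G45710 was highest at 1.09 ± 0.195 (SE, adjusted p = 0.000561) and AT5G28060 lowest at -0.98 ± 0.159 (SE, adjusted p = 0.000232), with 1134, 1452 and 1638 in polysome RNA, against 1933, 2979 and 3585 in steady-state RNA. Neither gene's groups overlapped, so genes for the same subunit lay on opposite sides.

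Without replicate number 2 the higher calls fell to 5 of the 40S and 3 of the 60S genes, and without number 1 the lower calls numbered 9 and 15. Over all probe sets the higher calls fell from 1323 to 297 without number 2, and the lower calls numbered 1328 without number 1. Pair 1 of the arrays gave list medians of 0.40 for 40S and 0.36 for 60S genes, whereas pairs 2 and 3 gave 0.07 and 0.06 for 40S genes and -0.00063 and 0.09 for 60S genes. Ribosomal protein genes occur in near-identical copies, and only probe sets that list 1 gene were used. Of 13 translation factor genes, 1 was higher (7.69%, near the share over all probe sets) and 2 lower (15.4%), with a median of -0.14. AT4G27130 gave 3486, 3888 and 3203 in polysome RNA, against 4207, 6953 and 7241 in steady-state RNA, a difference of -0.76 ± 0.151 (SE, adjusted p = 0.00141). AT2G04520, also on this list, lay the other way at 0.56 ± 0.138 (SE, adjusted p = 0.00706). Both calls were lost without replicate number 2 or 3. Of 18 genes for aminoacyl-tRNA synthetases, which charge tRNAs, 1 was higher and 1 lower (median -0.12), and of 8 nucleolar ribosome assembly genes only PES, the Pescadillo gene of large-subunit assembly, was called, at -0.58 ± 0.144 (SE, adjusted p = 0.00716), and it lost the call without the block.

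Part of the nuclear genes for the respiratory complexes of mitochondria were higher on polysomes. Of 49 measured, 30 had differences above 0 and 27 were not called; 19 were higher on polysomes (38.8%, against 8.31% of all probe sets) and 3 lower (6.12%), with a median of 0.31. The medians of the 3 pairs were 0.44, 0.17 and 0.31. AT3G10860 gave 8310, 7116 and 6028 in polysome RNA, against 2828, 3626 and 3381 in steady-state RNA, a difference of 1.12 ± 0.135 (SE, adjusted p = 1.04e-05). AT3G52730 gave 5202, 4252 and 4058 in polysome RNA, against 2229.8, 2988 and 2739.7 in steady-state RNA (0.77 ± 0.137 SE, adjusted p = 0.000553), and AT5G47570 differed by 0.72 ± 0.12 (SE, adjusted p = 0.000286). No overlap between the kinds was seen in these 3 genes, and their calls held in all 18 alternative settings. The lower members were AT1G51980 at -0.56, OEP16-3 at -0.48 and AT2G01090 at -0.47. Without replicate number 2 the higher members numbered 8, while higher calls over all probe sets fell from 1323 to 297.

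Of 11 measured transcripts of the mitochondrial genome itself, which encodes other subunits of the same complexes, 1 was called lower (9.09%), which is near the 8.89% of all probe sets. The median was -0.78, and 9 had differences below 0. That was ccb452, a cytochrome c maturation gene, with 147, 136 and 125 in polysome RNA, against 208, 267 and 356 in steady-state RNA (-1.0 ± 0.261 SE, adjusted p = 0.0107). Its call was lost without the block and without replicate number 2 or 3. Signals of these genes were low, and the list's summed mean signal was 2206 on polysomes and 2951 in steady-state RNA. The pair medians of -0.24, -0.68 and -1.16 show that the size of the difference varied among replicates.

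Transcripts of the chloroplast genome were poor on polysomes in part. Of 69 measured genes 23 were lower (33.3%, against 8.89% of all probe sets), 1 was higher and 45 were not called, with a median of -0.14. The medians of their signals were 2610, 4836 and 3397 on polysome arrays 1, 2 and 3, against 4169, 7667 and 7023 on steady-state arrays 1, 2 and 3. Replicate 1 was thus lowest in both kinds, and in 14 genes the polysome arrays lay below the steady-state arrays without overlap, which holds for 12.7% of all probe sets. The list medians of pairs 1, 2 and 3 were 0.12, -0.27 and -0.50, so that pair 1 lay on the other side of 0. Without the replicate block 11 genes were lower, and without replicate number 1 of all groups 30 were. Chloroplast polysomes are made of ribosomes other than those of the cytosol, and no source used here says how far the gradient fraction recovered them.

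Photosystem genes were lower in part. Lower calls made up 60% of photosystem I and 46.7% of photosystem II genes, against 8.89% of all probe sets. Of 5 photosystem I genes 3 were lower, with a median of -1.02: psaA, which encodes a reaction-centre protein, gave 1235, 1903 and 1505 in polysome RNA, against 4358, 7572 and 5272 in steady-state RNA (-1.87 ± 0.231 SE, adjusted p = 1.33e-05). Its partner psaB had a difference of 0.28 and was not called. Of 15 photosystem II genes 7 were lower, with a median of -0.70. The lowest was psbE, for a subunit of cytochrome b559, at 1161, 2617 and 3155 in polysome RNA, against 7085, 7667 and 10115 in steady-state RNA (-1.95 ± 0.179 SE, adjusted p = 4.13e-07), followed by psbH at 2283, 2951 and 3326 in polysome RNA, against 6547, 9438 and 9600 in steady-state RNA (-1.58 ± 0.144 SE, adjusted p = 4.13e-07). The kinds did not overlap in psaA, psbE and psbH, and the 3 calls held in all alternative settings. psbF, psbL and psbJ, which are known to share a transcript with psbE, were also lower, at -1.25, -1.01 and -1.01. The gene psbA, for the D1 protein, was not called at -0.70 ± 0.266 (SE, adjusted p = 0.076), although its difference equalled the median of the photosystem II list. Nor was psbC called, at -0.013.

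Other chloroplast complexes were mixed. Lower calls made up 25% of small-subunit ribosomal protein genes, 16.7% of ATP synthase, 20% of NADH dehydrogenase-like and 33.3% of cytochrome b6f genes. Over all probe sets 8.89% were lower and 8.31% higher. Counts of 1 or 2 in these lists of 6 to 10 genes say nothing about the list. For the large ribosomal subunit 4 of 7 genes were lower (57.1%), all 7 had differences below 0, and the median was -0.53. In this group rpl22 gave 4021, 7023 and 6974 in polysome RNA, against 8163, 14648 and 16409.8 in steady-state RNA (-1.11 ± 0.121 SE, adjusted p = 3.68e-06). Of 8 small-subunit genes 2 were lower, and the median was 0.11. For ATP synthase 1 of 6 genes was lower, atpF, at 2586, 3909.6 and 3120 in polysome RNA, against 5353, 11954 and 11507 in steady-state RNA (-1.51 ± 0.229 SE, adjusted p = 0.000111), while atpB and atpE, for the β and ε subunits, were not called at -0.11 and -0.087. Of 10 genes for the NADH dehydrogenase-like complex 2 were lower and 1 higher: ndhH gave 182, 393 and 537 in polysome RNA, against 634, 1684 and 1586 in steady-state RNA (-1.82 ± 0.165 SE, adjusted p = 4.04e-07), and ndhF, the only chloroplast gene called higher, gave 69.1, 272 and 559 in polysome RNA, against 53.8, 131 and 102 in steady-state RNA. The ndhF groups overlapped, and its difference of 1.29 ± 0.428 (SE, adjusted p = 0.0423) lost the call without the block. Of 6 cytochrome b6f genes 2 were lower, a count of 0 without the block or without replicate number 3 (petB, for cytochrome b6, lost its call in 12 of the 18 alternative settings), and 0 of 4 RNA polymerase genes were called, against 17.2% of all probe sets. The Rubisco large-subunit gene rbcL was not called at -0.14 ± 0.168 (SE, adjusted p = 0.629).

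**Figure D4:**
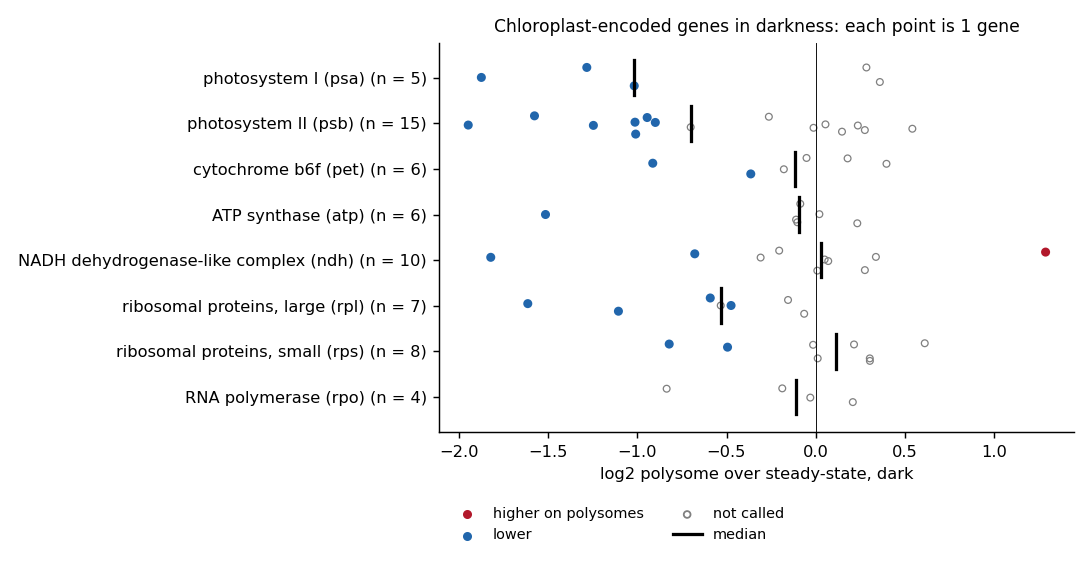
Log2 polysome over steady-state difference in darkness for chloroplast-encoded genes by complex, with 1 point per gene and a bar at the median. Photosystem I, photosystem II and large-subunit ribosomal protein genes have medians of -1.02, -0.70 and -0.53, and single genes of most complexes lie near or above 0.

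Among nuclear genes for greening, those measured for chlorophyll synthesis lay mostly below 0, while the photosynthesis and plastid ribosomal protein lists had medians near 0. Measured were 10 of 28 listed genes for chlorophyll synthesis, 12 of 71 for photosynthesis and 10 of 41 for plastid ribosomal proteins. Of 10 chlorophyll synthesis genes 3 were lower (30%, against 8.89% of all probe sets) and 0 higher, and the median was -0.42. The exception to the sign was PORB, the only one above 0 at 0.19 ± 0.149 (SE, adjusted p = 0.431), which was not called although its groups did not overlap. CHLM, for magnesium-protoporphyrin IX methyltransferase, gave 2319, 2291 and 1772 in polysome RNA, against 4678, 4958 and 3601 in steady-state RNA (-1.05 ± 0.158 SE, adjusted p = 0.00011). AT1G74470, for geranylgeranyl reductase, which makes the phytol tail of chlorophyll, gave 8302, 8739 and 6958 in polysome RNA, against 16634, 14502 and 14275 in steady-state RNA (-0.92 ± 0.122 SE, adjusted p = 2.72e-05). Neither gene's groups overlapped, and both calls held in all alternative settings. CHLI2, for a magnesium chelatase subunit, was lower at -0.60 ± 0.163 (SE, adjusted p = 0.0136), with overlapping groups and no call without the block.

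Of 12 nuclear photosynthesis genes 3 were lower (25%) and 1 higher (8.33%), with a median of -0.03 and 6 genes above 0. Over all probe sets 8.89% were lower and 8.31% higher. LHCB4.2, for a minor antenna protein of photosystem II, gave 7691, 5707 and 5660.2 in polysome RNA, against 12980.2, 10604 and 10155 in steady-state RNA (-0.83 ± 0.129 SE, adjusted p = 0.000147), without overlap. LHCB4.1 was lower at -0.61 ± 0.154 (SE, adjusted p = 0.00818) and overlapped, and RCA, for Rubisco activase, was lower at -0.35 ± 0.113 (SE, adjusted p = 0.0366); PSAE-1, for a photosystem I subunit, was higher at 0.62. The call of LHCB4.1 was lost in 5 of the 18 alternative settings and that of RCA in 13, the fit without the block among the 13. Without replicate number 2 or 3 both were lost, and 1 gene was called lower without either number. Of 10 nuclear genes for plastid ribosomal proteins 2 were lower (20%) and 5 lay above 0. AT5G65220 gave 2041, 2274 and 2328 in polysome RNA, against 6263, 6902 and 6098 in steady-state RNA (-1.54 ± 0.151 SE, adjusted p = 8.87e-07) and AT4G17560 gave 649.9, 839 and 715 in polysome RNA, against 1255, 1178 and 1234 in steady-state RNA (-0.74 ± 0.138 SE, adjusted p = 0.000783). Both had groups without overlap, whereas the median of the list was -0.05.

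Most measured histone genes lay above 0, and the measured splicing-factor genes lay below. Measured were only 10 of 41 listed histone genes and 2 of 23 listed splicing-factor genes. Of 10 histone genes 4 were higher (40%, against 8.31% of all probe sets) and 9 lay above 0, with a median of 0.48 and pair medians of 0.56, 0.36 and 0.46. HTB4, for a histone H2B, gave 6220, 6523 and 4864 in polysome RNA, against 3730.3, 4444 and 3230.4 in steady-state RNA (0.63 ± 0.145 SE, adjusted p = 0.00452), without overlap, but its call was lost without replicate number 2. Without the block 1 histone gene was called, and without replicate number 2 the count was 0. Higher calls over all probe sets fell as well, to 589 and 297. Both measured splicing-factor genes were lower: ATU2AF35A and U2AF35B, for small subunits of the factor that binds the 3′ splice site, differed by -0.94 ± 0.165 (SE, adjusted p = 0.000491) and -0.68 ± 0.206 (SE, adjusted p = 0.0261). ATU2AF35A gave 759, 998 and 729 in polysome RNA, against 1422, 1909 and 1438 in steady-state RNA and kept its call in all alternative settings, unlike U2AF35B. Among Sm-like and RNA polymerase II subunit genes, LSM3B, for an Sm-like protein of RNA processing and decay, gave 418, 305 and 262 in polysome RNA, against 995, 799 and 864 in steady-state RNA (-1.45 ± 0.174 SE, adjusted p = 9.27e-06), without overlap, and NRPB12 was higher at 0.91 ± 0.199 (SE, adjusted p = 0.00313), a call lost without replicate number 2. In all 3 of these 12 genes were higher and 1 lower.

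Of 12 ubiquitin-specific protease genes 4 were higher (33.3%, against 8.31% of all probe sets) and 0 lower, with a median of 0.35; UBP23 gave 820, 831 and 785 in polysome RNA, against 565, 565 and 305 in steady-state RNA (0.82 ± 0.163 SE, adjusted p = 0.00139), without overlap, and lost its call without replicate number 3. Of 12 ubiquitin-conjugating enzyme genes 4 were higher (33.3%) and 1 lower (8.33%), and the largest difference in either direction belonged to the lower one: UBC28 gave 6388, 5655 and 5763 in polysome RNA, against 11048, 14802 and 16503 in steady-state RNA (-1.23 ± 0.131 SE, adjusted p = 2.55e-06), against UBC30, which gave 3299, 3123 and 2418 in polysome RNA, against 1288, 1588 and 1637 in steady-state RNA (0.97 ± 0.133 SE, adjusted p = 4.34e-05). Both had groups without overlap. Among 8 autophagy genes 3 were higher (37.5%), all of them members of the ATG8 family, which encodes the ubiquitin-like protein of autophagosome membranes. The list holds further ATG8 genes that were not called. ATG8D was the weakest of the 3, at 0.41 ± 0.134 (SE, adjusted p = 0.0393), and lost its call in 10 of the 18 alternative settings. ATG8H gave 2002, 2319 and 1764 in polysome RNA, against 866, 1151 and 1052 in steady-state RNA (0.99 ± 0.173 SE, adjusted p = 0.000462) and ATG8G differed by 1.03 ± 0.215 (SE, adjusted p = 0.00216), while ATG8B and ATG8C were not called at -0.22 and -0.081.

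Of 26 vesicle traffic genes 7 were higher (26.9%, against 8.31% of all probe sets) and 2 lower (7.69%). VPS60.2, for a protein of the membrane-sorting machinery ESCRT-III, gave 1135, 1021 and 1042 in polysome RNA, against 580.2, 614 and 444 in steady-state RNA (0.98 ± 0.176 SE, adjusted p = 0.000595), and SEC5B, for a subunit of the exocyst, was lower at -1.34 ± 0.351 (SE, adjusted p = 0.011) with low signals that did not overlap, 26.2 to 111 on polysomes and 115 to 186 in steady-state RNA. SEC5B lost its call without the block and without replicate number 2 or 3, and VPS60.2 kept it in all alternative settings. Without the block 1 vesicle gene was called higher, and without replicate number 2 the higher counts were 1 for vesicle traffic, 1 for ubiquitin-specific proteases, 1 for ubiquitin-conjugating enzymes and 2 for autophagy. Over all probe sets 589 were higher without the block and 297 without number 2, against 1323 with the block and all arrays. Of 9 measured proteasome subunit genes, from 52 listed, 1 was higher and 1 lower (median -0.17), which is close to the share over all probe sets.

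Of 9 tetraspanin genes, for small membrane proteins, 3 were lower (33.3%, against 8.89% of all probe sets), with a median of -0.43; without the block, without the intensity trend or without any 1 replicate number the count was 0. SWEET sugar transporter genes were lower in 3 of 10 (30%), with a median of -0.27: SWEET2 gave 1199.5, 2019.6 and 2489.6 in polysome RNA, against 2697, 2943 and 3854 in steady-state RNA (-0.78 ± 0.135 SE, adjusted p = 0.000401), and without the block the count was 0. Of 19 expansin and xyloglucan endotransglucosylase genes, for proteins that loosen the wall, 2 were lower (10.5%). EXPA4 gave 1748, 1325 and 1260 in polysome RNA, against 2551, 2213 and 2163 in steady-state RNA (-0.69 ± 0.152 SE, adjusted p = 0.00331), without overlap, and lost its call without replicate number 2 or 3. GH9C2, for an endoglucanase, was lower at -0.93 ± 0.178 (SE, adjusted p = 0.00101), a call lost without replicate number 2. Of the 20 glycoside hydrolase genes with it 3 were lower and 1 higher. No cytochrome P450 gene of 11 and no auxin response gene of 7, from 52 listed, was called, with medians of -0.26 and -0.11. Over all probe sets 17.2% were called, so with so few members these counts say nothing about either list.

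**Figure D5:**
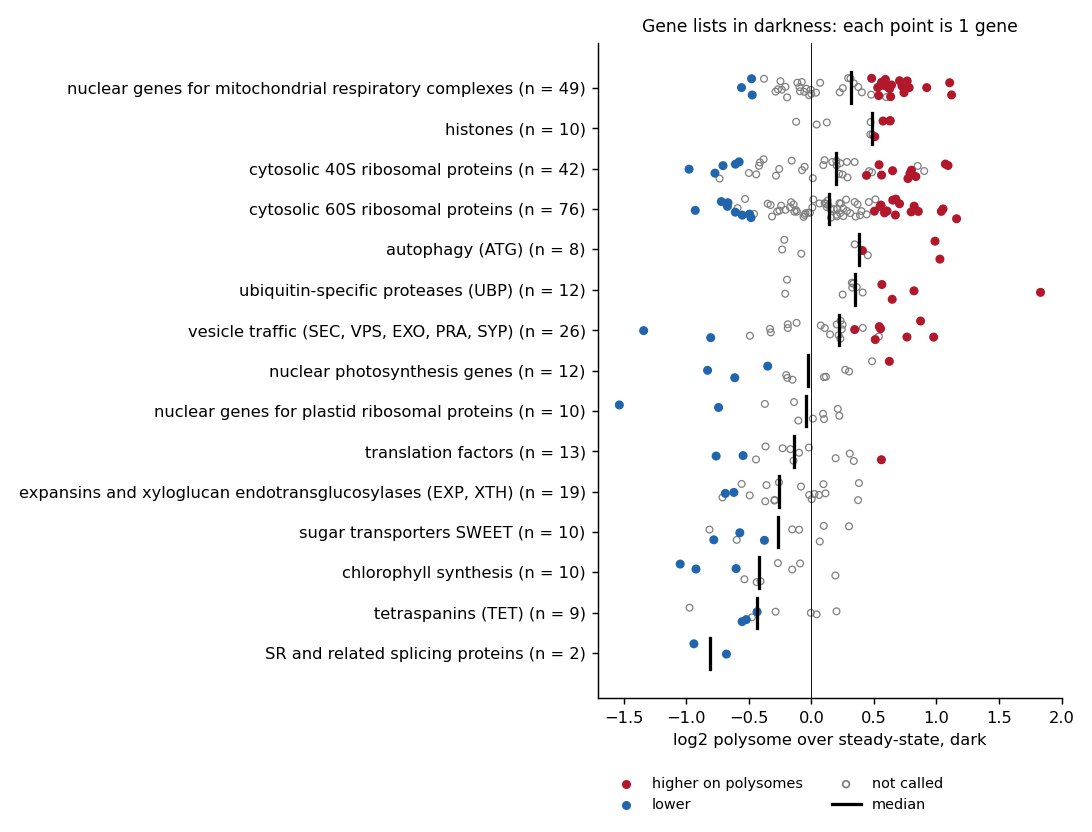
Log2 polysome over steady-state difference in darkness for 15 gene lists, with 1 point per gene and a bar at the median. Medians lie between 0.48 for histone genes and -0.81 for the 2 splicing-factor genes, and both signs occur within most lists.

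Seed reserve and starvation genes were few. Over all probe sets 8.31% were higher and 8.89% lower, and 1 call in a list of 3 or 4 genes says nothing about the list. OLEO3, for an oleosin of seed oil bodies, gave 3935, 3886 and 3550.3 in polysome RNA, against 2331, 2844 and 2433 in steady-state RNA (0.58 ± 0.163 SE, adjusted p = 0.0163), the only call among 4 seed storage and late embryogenesis genes. ICL, for isocitrate lyase of the glyoxylate cycle, which turns stored lipid into sugar, gave 8417, 6745 and 5434 in polysome RNA, against 11529, 10126 and 10222 in steady-state RNA (-0.65 ± 0.157 SE, adjusted p = 0.00628), the only call among 3 lipid breakdown genes. Neither gene's groups overlapped, and both calls were lost without replicate number 2 or 3. That of OLEO3 was also lost without the block. AKINBETA1, for a subunit of the energy-sensing kinase SnRK1, was higher at 0.51 ± 0.161 (SE, adjusted p = 0.0334), the only call among 4 starvation genes. Its call was lost in 9 of the 18 alternative settings, among them those without replicate number 2, without number 3 and without the block.

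Genes with conserved upstream reading frames, short coding stretches ahead of the main one that are known to hold back its translation, were higher in 2 of 9 and lower in 0, with a median of 0.22. Over all probe sets 8.31% were higher and 8.89% lower, and with 9 members these counts say nothing about the list. Without the block, or without any 1 replicate number, 1 was higher, and without number 1 also 1 was lower. AT5G15950 gave 407, 622 and 581 in polysome RNA, against 249, 277 and 229 in steady-state RNA (1.07 ± 0.21 SE, adjusted p = 0.00127), without overlap, and kept its call in all alternative settings. PMEAMT, for a methyltransferase of phosphocholine synthesis, was higher at 0.45 ± 0.15 (SE, adjusted p = 0.0442), with overlapping groups, and lost its call in 13 of the 18 alternative settings. AT1G73600 of the same list was not called at -0.71 ± 0.424 (SE, adjusted p = 0.275). GI, the clock gene GIGANTEA, had groups without overlap, 1461, 1592 and 1369.9 in polysome RNA, against 1171, 1050 and 1024 in steady-state RNA, but was not called at 0.45 ± 0.198 (SE, adjusted p = 0.13).

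The dark difference was also set against the length of the gene. Over 8592 nuclear genes with a span in the RefSeq table (assembly TAIR10.1, introns included), Spearman's rho across genes was -0.0144, given as a description since genes are not replicates and share the arrays. The median was 0.14 for 519 genes of over 500 and up to 1000 bp, -0.0011 for 2749 genes of over 2000 and up to 3000 bp, and 0.11 for 313 genes of over 6000 bp. Across the same genes rho was -0.222 for the difference after 4 h of light.

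The dark differences were set against those in light, whose signals come from other arrays. The fit gives a probe set the same SE in darkness and in light, so its calls in these conditions are not independent. After 0.5 h of light 2944 probe sets were called (18.5%), 9.36% of all higher and 9.13% lower, and after 4 h 3677 (23.1%), 9.64% higher and 13.5% lower. Of the 1323 called higher in darkness 812 (61.4%) were also higher after 0.5 h and 739 (55.9%) after 4 h, which is 54.5% and 48.1% of the higher calls there. Of the 1415 lower in darkness 966 (68.3%) were lower after 0.5 h and 781 (55.2%) after 4 h, or 66.5% and 36.5% of the lower calls there. The chloroplast genes called lower numbered 24 after 0.5 h and 21 after 4 h. Between darkness and 4 h of light 4 higher and 34 lower dark calls were called with the opposite sign, against 0 of each after 0.5 h.

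Tested directly, the dark ratio differed from the mean of the light ratios in 26 probe sets (0.163%), of which 24 were lower in darkness (0.151%) and 2 higher (0.0126%). At an unadjusted p under 0.05 there were 1229. Without the block 1 was called and without the intensity trend 0, and with pairs set within each light condition 16 were called. Of the 26, 12 list 1 gene and are named here by that test. AT2G26500 gave 4346, 3901 and 4079 in polysome RNA, against 9785, 9624 and 11035 in steady-state RNA in darkness (-1.30 ± 0.117 SE, adjusted p = 3.47e-07), against differences of -0.85 after 0.5 h and 0.38 after 4 h of light (dark minus light mean -1.07 ± 0.143 SE, adjusted p = 0.00305). STOMAGEN, for a secreted peptide that promotes stomata, gave 348, 619 and 655 in polysome RNA, against 748, 1376 and 1147 in steady-state RNA in darkness (-1.02 ± 0.155 SE, adjusted p = 0.000116), against -0.62 after 0.5 h and 0.64 after 4 h of light (dark minus light mean -1.03 ± 0.19 SE, adjusted p = 0.0245). AT5G65220, the plastid ribosomal protein gene described above, had differences of -1.14 after 0.5 h and 0.023 after 4 h of light (dark minus light mean -0.98 ± 0.184 SE, adjusted p = 0.0262). In AT2G26500 and STOMAGEN the difference was below 0 in darkness and after 0.5 h and above 0 after 4 h. That of AT5G65220 was below 0 in darkness and after 0.5 h and near 0 after 4 h (SE 0.151, limma adjusted p = 0.937). AT1G73650 was the only named gene with a higher dark ratio, at -0.011 in darkness against -0.67 after 0.5 h and -1.08 after 4 h of light.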

How the data were processed

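Signal intensity values were deposited by the authors for 22810 probe sets; per the submitters' processing notes they are MAS5 values, of a version that no source used here states. From them 64 control probe sets were set aside, values under 1 were set to 1, log2 was taken, and the 15922 probe sets whose mean log2 signal reached the 30th percentile were kept; 8788 list 1 gene, 326 several and 6808 none. limma 3.58.1 in R 4.3.3 fitted 6 group means over 18 arrays with the replicate number as a block and an intensity trend, with Benjamini-Hochberg adjustment over all probe sets kept. The replicate number pairs the arrays: labels give both kinds of RNA the same source name, and arrays of one number deviated together from their group means (correlations of 0.295 to 0.377), unlike arrays of different numbers (-0.321 to -0.0429).

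The genes named at both ends are the 10 largest and 10 smallest called differences from probe sets that list 1 gene, whose arrays did not overlap and whose geometric mean reached 200 in the higher group. From each list, members were taken among the 3 of lowest adjusted p, or the strongest where none was called; not all of these are printed, and some further members are given for contrast, picked after their values were seen. Lists were written by locus or taken by gene symbol, and chloroplast genes by chromosome in a RefSeq gene table (TAIR10.1). The comparison, lists and members were chosen with earlier results of these data known, and some lists were added after the files were seen. Lists by description, and protein length, were not used here. The result of 1 list is not reported here. The fit was tested on simulated data.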

Additional observations from a re-analysis of the deposited data

Results flagged for a closer look

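In 26 probe sets the dark ratio of polysome to steady-state signal differed from the mean of the light ratios by limma's contrast over the 18 arrays. The 12 of them that list 1 gene had dark minus light log2 differences of -1.34 for AT1G53120, -1.12 for AT4G38490 and for AT2G29180, -1.07 for AT2G26500, -1.05 for AT3G47295, -1.03 for AT4G12970 (STOMAGEN), -0.99 for AT1G28150, -0.98 for AT5G65220, -0.93 for AT4G09830, -0.92 for AT3G51510, -0.86 for AT4G21110 and 0.86 for AT1G73650.

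Outside the tested probe sets, the first 3′ GAPDH control was higher on every polysome array than on every steady-state array, with mean signals of 5959 on polysomes and 4122 in steady-state RNA, while the 5′ GAPDH control of the same set averaged 1228 on polysomes and 2384 in steady-state RNA. The second 3′ GAPDH control overlapped between the kinds, with means of 5726 on polysomes and 6266 in steady-state RNA.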

How the results depend on the processing

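Without the replicate block 1313 probe sets were called in darkness (589 higher, 724 lower), 11 chloroplast genes were lower, and 1 probe set differed between the dark and light ratios. The fit with the block within each light condition gave 16 of the last kind, and the fit without an intensity trend 0. Leaving out arrays or replicate numbers gave 760 to 2609 called probe sets, 297 to 1281 higher and 463 to 1328 lower, 8 to 18 respiratory genes higher and 16 to 30 chloroplast genes lower. The median of the UDP-glycosyltransferase genes, 0.11, turned to -0.0251 under the stricter filter, to -0.0114 and -0.0103 without the dark steady-state array of replicate 2 and of replicate 3, and to -0.0367 without replicate number 3, within -0.0367 to 0.145 over all arrays and numbers left out; the cause was not tested. Of 116 named genes that were called, 47 stayed called in all 18 alternative settings, 4 more in the 17 that kept them (the stricter filter dropped them), 70 without the block and 59 without replicate number 2, and 0 changed sign. The share of higher among called probe sets was 48.3%, and 51.7% on a common median. The planned medians by protein length were not run. With 3 arrays a group, the median SE of 0.201 limits what could be called.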

Other observations

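Counts of other gene lists stand beside 8.31% higher and 8.89% lower over all probe sets. Of 30 UDP-glycosyltransferase genes 2 were higher on polysomes (6.67%) and 3 lower (10%), with a median of 0.11, and UGT73B1 was lowest at -0.99. Of 17 serine carboxypeptidase-like genes 2 were higher (11.8%) and 1 lower (5.88%). Of 17 trichome birefringence-like genes, known for wall polymer acetylation, 1 was higher (5.88%). Of 15 organelle RNA-editing and splicing PPR genes 1 was higher and 1 lower (6.67% each). Of 7 tau-class glutathione transferase genes 2 were lower (28.6%), a count of 0 without the block. Of 8 tubulin and actin genes 1 was lower, TUA6, at -0.46. Of 6 endoplasmic reticulum folding genes 1 was higher, ATERDJ3B, at 0.61, and of 7 cytosolic chaperone genes 0 were called.

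The median signal of chloroplast transcripts was lower in replicate 1 than in replicates 2 and 3 of the same kind, though not every transcript followed. ndhH read 182 on polysome array 1, against 392 or more on the others, and 634 on steady-state array 1, against 1586 or more. In contrast petB read 19084, 18373 and 16829 on polysome arrays 1, 2 and 3.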
